A study of Mus musculus with 8 samples.

Results

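AP-1 is a family of transcription factors, and 10 of its genes were followed here through CD4+ T cells with and without the kinase IRAK1. They were chosen by name: Fos, Fosb, Fosl1 and Fosl2, Jun, Junb and Jund, Batf and Batf3, and Atf3. A gene was read from the probe set that the array's annotation gives to it alone, and where a gene had more than 1, from the probe set with the highest mean over all 8 arrays. By this rule 9 of the 10 were measured, out of 22180 genes on the array. Fosl1 was not, because its probe set is shared with Ccdc85b. The 9 all passed a filter on low levels that left 13308 genes for testing.

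The study transferred CD4+CD62L+ T cells, a mostly naive population, into Rag1-/- mice, which make no T or B cells of their own but keep their myeloid and natural killer cells. Each recipient received wt cells of the CD45.1 form and Irak1-/- cells of the CD45.2 form together, so the CD45 form and the genotype cannot be told apart. The mice were of the C57BL/6 strain, and no age is stated. After 14 days CD3+CD4+ cells of each form were sorted from the mesenteric lymph nodes, which drain the gut, to a stated purity above 99.5%. There were 4 replicate experiments. In each, cells of 2 recipients were pooled and hybridised to 1 array per genotype, and these 2 arrays are called a pair.

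AP-1 proteins work as dimers. Each carries a basic region that touches DNA and a leucine zipper that joins it to a partner. FOS proteins cannot pair with each other and need a JUN protein, while JUN proteins also pair among themselves. BATF and BATF3 are small proteins without a strong activation domain that join JUN partners and act with IRF4 or IRF8. In T cells the antigen receptor, costimulation and inflammatory cytokines raise FOS and JUN within minutes through MAP kinases, and AP-1 with NFAT then switches on cytokine genes such as Il2. IRAK1 relays signals from IL-1 family and Toll-like receptors, which lead to NF-kappaB and also to the MAP kinases that act on AP-1.

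The arrays gave log2 levels with array medians between 4.25 and 4.31. The CD4 T cell markers on the array, 10 of 12 listed, had a mean level between 10.16 and 10.20 on wt arrays and between 10.02 and 10.22 on Irak1-/- arrays. The probe set of Irak1 itself did not separate the genotypes, at 6.77 ± 0.332 in wt cells and 6.84 ± 0.167 in Irak1-/- cells (SD, n = 4 each). Which part of the gene was deleted is unstated, so this level does not test the genotype. The Irak1-/- array of replicate 3 stood apart, with correlations to the others between 0.957 and 0.970, against 0.976 to 0.986 among the remaining 7.

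No AP-1 gene differed between Irak1-/- and wt cells past the threshold. Of the 9 genes, 0 were called at an adjusted p under 0.05 by limma with the pair as a block, where 0.0751% of all genes tested were called (0.0676% higher and 0.00751% lower), and 0 had an unadjusted p under 0.05, where 6.7% of all genes did. Leaving out the Irak1-/- array of replicate 3, or any pair, also gave 0 calls among them. The fitted log2 differences, Irak1-/- minus wt, ran from -0.27 for Batf3 to 0.38 for Atf3. Of the 9, 7 lay below 0, against 58.1% of all genes, and their median was -0.11, against -0.03 over all genes. The adjusted p values ran from 0.812 to 0.977. Every 95% confidence interval included 0, and the intervals reached from -0.59 at the lower end to 0.84 at the upper end on the log2 scale. In all 9 genes the Irak1-/- and wt values overlapped; groups without overlap were seen in 3.04% of all genes.

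**Figure D1:**
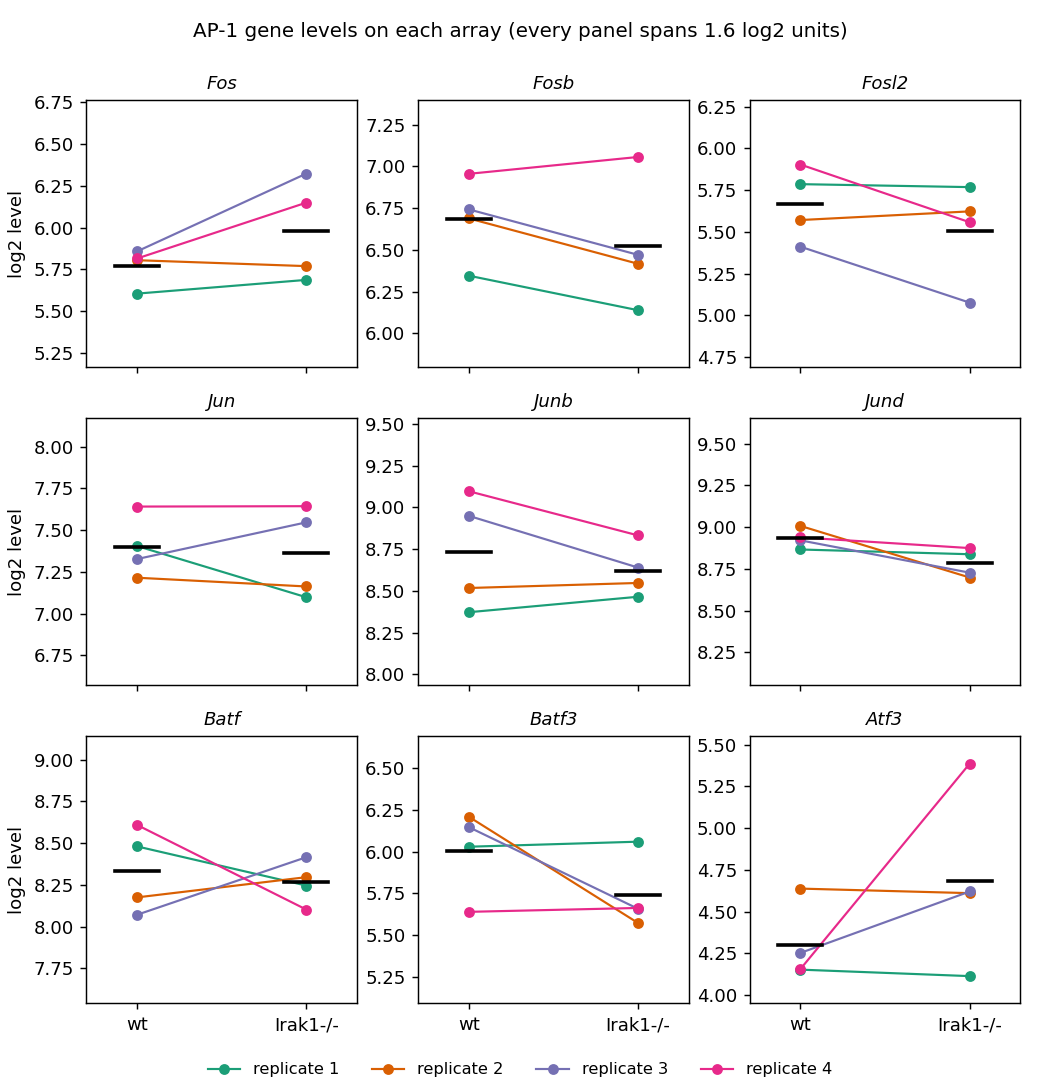
Log2 level of each AP-1 gene on the 8 arrays. Points are arrays, lines join the wt and the Irak1-/- array of 1 pair, black bars are group means (n = 4), and every panel spans the same height so that slopes can be compared between genes; the groups overlap in each panel.

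Fos, the founding member of the family and the classic gene of rapid induction, read 5.60, 5.80, 5.86 and 5.81 on the wt arrays of replicates 1 to 4. On the Irak1-/- arrays it read 5.69, 5.77, 6.32 and 6.15. The Irak1-/- arrays of replicates 3 and 4 lay above every wt array and the other two lay within the wt range. The fitted difference was 0.21 (SE 0.122, limma adjusted p = 0.834), or 1.16-fold with a 95% confidence interval from 0.955 to 1.40. It was higher in 3 of 4 pairs. The difference was 0.13 without pair 3 and 0.10 in an unpaired fit of the 7 arrays other than Irak1-/- replicate 3.

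Fosb, a close relative of Fos that is induced by the same signals, was read at 6.35, 6.69, 6.74 and 6.96 in wt and at 6.14, 6.42, 6.47 and 7.06 in Irak1-/- arrays. Replicate 1 was lowest and replicate 4 highest in both genotypes. The difference was -0.16 (SE 0.114, adjusted p = 0.883), with a lower level in 3 of 4 pairs, and it was -0.25 without pair 4.

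Fosl2 encodes FRA2, a FOS protein that lacks the strong activation domain of FOS. Its levels were 5.79, 5.57, 5.41 and 5.90 in wt and 5.77, 5.62, 5.08 and 5.56 in Irak1-/- arrays. The Irak1-/- array of replicate 3 gave the lowest value. The difference was -0.16 (SE 0.119, adjusted p = 0.890). It was -0.10 without pair 3 and -0.10 without pair 4, and -0.02 in the unpaired fit of the other 7 arrays.

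Jun, the strongest activator among the JUN proteins, read 7.40, 7.22, 7.33 and 7.64 in wt and 7.10, 7.16, 7.55 and 7.64 in Irak1-/- arrays. The values of the genotypes lay among each other, and 2 of 4 pairs were higher. The difference was -0.03 (SE 0.120, adjusted p = 0.977), with a 95% confidence interval from -0.31 to 0.24. It was -0.12 without pair 3 and turned to 0.06 without pair 1.

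Junb, which is needed for the Th2 and Th17 programmes, read 8.37, 8.52, 8.95 and 9.10 in wt and 8.46, 8.55, 8.64 and 8.83 in Irak1-/- arrays. The wt arrays spread more widely than the Irak1-/- arrays, with an SD of 0.344 against 0.158 (n = 4 each, no test of the spread). Pairs 1 and 2 were slightly higher and pairs 3 and 4 lower in Irak1-/- cells. The difference was -0.11 (SE 0.118, adjusted p = 0.929). It was -0.18 without pair 1, -0.05 without pair 3 and -0.06 without pair 4.

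Jund, the JUN protein that resting cells already hold, read 8.87, 9.01, 8.92 and 8.94 in wt and 8.84, 8.70, 8.73 and 8.88 in Irak1-/- arrays. It was the only one of the 9 genes that was lower in 4 of 4 pairs, a pattern shown by 8.91% of all genes; none was higher in all 4 pairs, as 5.26% of all genes were. For Jund only the Irak1-/- array of replicate 4 reached the wt range. The difference was -0.15 (SE 0.109, adjusted p = 0.889), or 0.902-fold with a 95% confidence interval from 0.760 to 1.07, and it was -0.10 without pair 2. A second probe set of Jund did not show it. There the wt arrays read 6.99, 7.11, 7.17 and 7.11, the Irak1-/- arrays read 6.86, 6.93, 7.54 and 7.15, and the difference was 0.02 (SE 0.133) in a fit of every probe set without a level filter. The probe sets of Jund thus disagreed in sign, and 2 of 4 pairs were higher on the second.

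**Figure D2:**
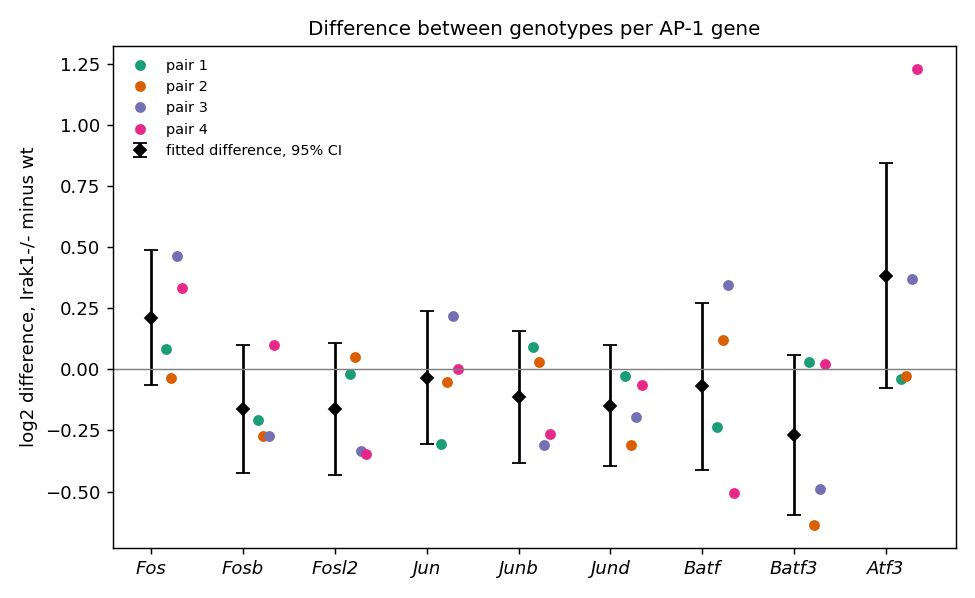
Log2 difference, Irak1-/- minus wt, for each AP-1 gene. Black diamonds and bars are the fitted difference with its 95% confidence interval from limma, and coloured points are the 4 pairs; every interval includes 0, and the highest point is pair 4 of Atf3 at 1.23.

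Batf, which opens chromatin for Th17 and effector genes together with IRF4, read 8.48, 8.18, 8.07 and 8.61 in wt and 8.25, 8.30, 8.42 and 8.10 in Irak1-/- arrays. The pairs pointed in opposite directions, at -0.23, 0.12, 0.34 and -0.51. The difference was -0.07 (SE 0.150, adjusted p = 0.960), and it was -0.01, -0.13 and -0.21 without pairs 1, 2 and 3 and turned to 0.08 without pair 4. The SD of the pair differences was 0.377, at least as high as in 80.9% of all genes tested.

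Batf3, known best for the development of cross-presenting dendritic cells and also made by activated T cells, read 6.03, 6.21, 6.15 and 5.64 in wt and 6.06, 5.57, 5.66 and 5.66 in Irak1-/- arrays. Pairs 2 and 3 were lower in Irak1-/- cells, at -0.64 and -0.49, and pairs 1 and 4 were nearly equal, at 0.03 and 0.02. The difference was -0.27 (SE 0.144, adjusted p = 0.812), or 0.830-fold with a 95% confidence interval from 0.662 to 1.04. It was -0.15 without pair 2.

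Atf3, a stress-induced factor that can pair with JUN proteins and often represses inflammatory genes, read 4.15, 4.64, 4.25 and 4.16 in wt and 4.11, 4.61, 4.62 and 5.39 in Irak1-/- arrays. The wt value lay below the median of all probe sets of its array in 3 of 4 arrays, and the background of these arrays is not given, so the size of any difference is uncertain. The fitted difference was 0.38 (SE 0.202, adjusted p = 0.812). Pair 4 gave 1.23, and without pair 4 it was 0.10 (adjusted p = 0.970).

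Myeloid markers were higher on the same Irak1-/- arrays. Of 20 macrophage, monocyte and neutrophil markers on the array, 19 were tested and 3 rose past the threshold (Lyz2, Tyrobp and Fcer1g), with a median difference of 0.72 and 19 of 19 above 0. Their summed log2 level ran from 89.8 to 94.4 on wt and from 107.0 to 119.7 on Irak1-/- arrays, and between 12 and 15 of the 20 lay above the array median in wt, against 17 to 19 in Irak1-/- arrays. By pair, their mean was higher in Irak1-/- cells by 0.63, 1.02, 1.22 and 1.27. The differences of Fos in those pairs were 0.08, -0.04, 0.47 and 0.33, and those of Atf3 were -0.04, -0.03, 0.37 and 1.23. Pairs 3 and 4 were thus the highest for both genes and for the markers, and also for Jun. For Junb they were the lowest, at -0.31 and -0.26, and for Fosl2 likewise, at -0.34 and -0.35. The other AP-1 genes had neither order. Macrophages and neutrophils also express AP-1 genes, among them Fos and Atf3, and the part of such RNA in these values was not tested. Fewer cells of a type and less RNA per cell cannot be told apart in bulk samples.

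Of the other marker lists, dendritic cells had 8 tested genes with 1 called higher, H2-Aa. At an unadjusted p under 0.05, 3 were higher and 1 lower, the integrin gene Itgax at -0.59 (adjusted p = 0.501), named after its value was seen and lower in 4 of 4 pairs. The list had a summed level of 42.9 to 44.8 in wt and 46.2 to 48.7 in Irak1-/- arrays. The 3 higher genes were the MHC class II genes H2-Aa, H2-Ab1 and H2-Eb1, at 1.74, 1.77 and 0.82. The remaining tested genes of the list, Zbtb46, Xcr1, Cd209a and Siglech, had 0.01, 0.11, 0.12 and -0.07. Xcr1, a defining marker of the dendritic cells that need BATF3, had 4.02 ± 0.174 in wt and 4.13 ± 0.127 in Irak1-/- arrays. Both means lay below the array medians, so the size of any difference is uncertain. Markers of NK cells, ILC and CD8 T cells had 0 calls among 8, with 4 lower at an unadjusted p under 0.05, and summed 45.5 to 46.7 in wt against 42.3 to 45.7. B cell markers had 0 calls and 0 at an unadjusted p under 0.05 among 4 tested, with sums of 22.1 to 23.9 in wt and 22.7 to 23.4. Stromal and vessel markers had 0 of either among 6, with sums of 30.9 to 32.0 in wt and 29.5 to 32.4.

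The levels of the AP-1 genes were also compared between the replicate experiments. Averaged over both genotypes of a pair, Fosb ran from 6.24 in pair 1 to 7.01 in pair 4, a range of 0.76 that was at least as large as in 95.7% of all genes tested. Junb ran from 8.42 in pair 1 to 8.96 in pair 4, and Jun from 7.19 in pair 2 to 7.64 in pair 4. Fos ran from 5.65 in pair 1 to 6.09 in pair 3. In these 4 genes both pair 3 and pair 4 lay above both pair 1 and pair 2, an order found in 15.9% of all genes and noticed after the values were seen. The reverse order was found in 0 of the 9 and in 27.7% of all genes. Of the 23 other immediate early genes described below, 6 (26.1%) had the same order as these 4 genes and 2 (8.7%) the reverse. The ranges of pair means in that list ran from 0.13 to 0.81. Jund had a range of only 0.08, at the 2.81 percentile of all genes, and Batf of 0.13. Fosl2 was lowest in pair 3, at 5.24, and Batf3 in pair 4, at 5.65, unlike Fosb and Junb. Atf3 was lowest in pair 1, at 4.13, and highest in pair 4, at 4.77, as Fosb and Junb were, and its range of 0.64 was at least as large as in 91.3% of all genes. Over the 9 genes the median range of pair means was 0.45, against 0.31 over all genes, while the median SD of their pair differences was 0.22, against 0.24. A range over 4 pairs is not on the same footing as a difference between 2 groups, no test was made of these ranges, and the replicate number stands for all that the experiments do not share.

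**Figure D3:**
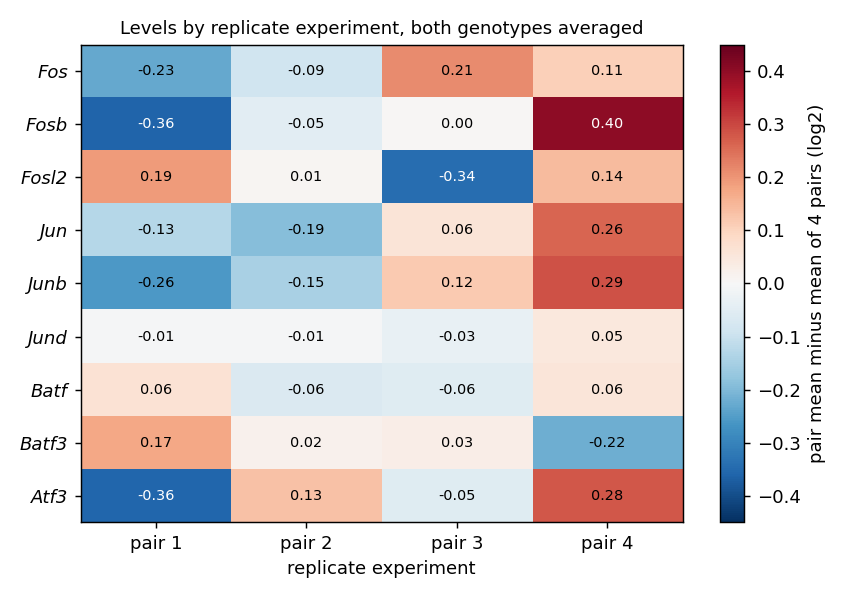
Level of each AP-1 gene in each replicate experiment, averaged over the wt and the Irak1-/- array of the pair and centred on the gene's mean over the 4 pairs (log2 units, printed in each cell). Fos, Fosb, Jun and Junb are at or above their mean in pairs 3 and 4 and below it in pairs 1 and 2; Jund and Batf hardly move.

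The proximal promoters of Fos, Fosb, Jun and Junb, the 4 genes that shared this order of pairs, are shown with the letters that AP-1 and CREB proteins can bind. They come from RefSeq on GRCm38.p6, run 5′ to 3′ along the gene and hold 250 bases before and 50 after the start. Capitals mark TGACG, the core of the cAMP response element, and TGACATCA, the variant AP-1 site of the Jun promoter.
Fos, chr12:85473640-85473939, plus strand: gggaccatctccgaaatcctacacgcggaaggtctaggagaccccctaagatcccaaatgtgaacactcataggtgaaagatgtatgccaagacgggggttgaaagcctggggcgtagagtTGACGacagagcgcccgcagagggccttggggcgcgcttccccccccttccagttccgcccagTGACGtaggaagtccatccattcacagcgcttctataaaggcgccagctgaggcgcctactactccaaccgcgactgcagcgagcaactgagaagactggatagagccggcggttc
Fosb, chr7:19309996-19310295, minus strand: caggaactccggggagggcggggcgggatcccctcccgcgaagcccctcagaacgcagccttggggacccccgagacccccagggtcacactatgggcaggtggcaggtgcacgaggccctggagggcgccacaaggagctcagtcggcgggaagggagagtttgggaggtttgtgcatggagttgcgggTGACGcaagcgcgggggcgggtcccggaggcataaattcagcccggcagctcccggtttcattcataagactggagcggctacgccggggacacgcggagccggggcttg
Jun, chr4:95052173-95052472, minus strand: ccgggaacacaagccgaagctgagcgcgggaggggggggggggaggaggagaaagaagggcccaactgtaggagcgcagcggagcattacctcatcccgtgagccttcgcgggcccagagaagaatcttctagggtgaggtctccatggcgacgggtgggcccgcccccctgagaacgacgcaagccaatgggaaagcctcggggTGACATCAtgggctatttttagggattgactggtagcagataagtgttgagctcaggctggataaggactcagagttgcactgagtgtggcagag
Junb, chr8:84978699-84978998, minus strand: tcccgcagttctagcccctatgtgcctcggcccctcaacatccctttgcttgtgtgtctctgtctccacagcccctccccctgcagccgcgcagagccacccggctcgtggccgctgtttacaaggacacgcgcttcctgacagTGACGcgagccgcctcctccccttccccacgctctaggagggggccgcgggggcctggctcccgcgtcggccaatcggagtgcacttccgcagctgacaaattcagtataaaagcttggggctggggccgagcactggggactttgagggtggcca
The core TGACG stood in the window of Fos at positions -129 and -66 from the start, of Fosb at -60 and of Junb at -106. Jun had TGACATCA at -45 and no TGACG.

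The same search was run on both strands of the promoters of all 9 genes and of all 32851 promoters in the table. TGACG was found for 5 of the 9, namely Fos, Fosb, Junb, Batf and Atf3, and in 20.8% of all promoters. TGACATCA was found for Jun alone and in 3.62% of all promoters. The pattern TGANTCA is the AP-1 site with any base allowed at N, so it is looser than the site itself. It was found in 0 of the 9 and in 7.81% of all promoters. The whole cAMP response element TGACGTCA, which holds TGACG, and the CArG box of serum response factor were also found in 0 of the 9. Their shares of all promoters were 1.79% and 1.63%. The NF-kappaB site was found for Fos, Fosb and Fosl2 and in 4.51% of all promoters. A match describes the letters only, and other parts of these genes were not searched.

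Genes around AP-1 were taken from 5 lists, with 86 distinct genes tested, and 0 of them were called by limma at an adjusted p under 0.05. Other bZIP factors and partners of AP-1 had 0 of 23 at an unadjusted p under 0.05 and a median difference of -0.01. The lowest p in this list belonged to the small MAF gene Maff, at 0.21 (adjusted p = 0.804), followed by Cebpb at 0.32, Maf at 0.45 and Mafg at 0.24. Irf4, the partner of BATF in T helper cells, had -0.03 (SE 0.132). Nfatc1, Nfatc2 and Nfatc3, whose products bind beside FOS and JUN, had -0.13, 0.07 and -0.12.

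Of all genes, 2.88% were higher and 3.82% lower at an unadjusted p under 0.05. MAP kinases and the factors they act on had 1 of 17 higher and 0 lower by that measure. The gene was Mapk8, which encodes the kinase JNK1 that phosphorylates JUN, with 6.03 ± 0.206 in wt and 6.41 ± 0.150 in Irak1-/- arrays. Its difference was 0.38 (SE 0.123, adjusted p = 0.580), higher in 4 of 4 pairs. Mapk9, which encodes JNK2, had -0.29 (SE 0.128, adjusted p = 0.763) and was lower in 4 of 4 pairs. Map2k4, a kinase upstream of both, had 0.18, and Mapk11, a p38 kinase, had 0.35.

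Other immediate early genes, which antigen receptor signals raise together with Fos and Jun, had 7 of 23 lower and 1 higher at an unadjusted p under 0.05, where 3.82% of all genes were lower and 2.88% higher. AP-1 had 0 of 9. The median difference of these genes was -0.17, and the count of lower genes ran from 6 to 10 under the other settings. Nr4a1, a nuclear receptor gene that tracks antigen receptor signalling, had the smallest p, with -0.76 (SE 0.138, adjusted p = 0.162). Ier3 had -0.50, Cd69 -0.51 and Nfkbiz -0.46, with adjusted p values of 0.335, 0.336 and 0.465, and each was lower in 4 of 4 pairs. Egr3, named after its value was seen, was the 1 gene on the other side, with 0.37 (adjusted p = 0.580) and higher in 4 of 4 pairs. Whether AP-1 differs from these genes was not tested. The myeloid marker means were higher in all 4 pairs, as given above, and their part in these values was not tested.

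At an unadjusted p under 0.05, 3.82% of all genes were lower and 2.88% higher. Target genes of FOS and JUN had 5 of 13 lower and 2 higher by that measure, with a median of -0.22. The count of lower genes ran from 4 to 6 under the other settings. Cd69 is on this list and also on that of the immediate early genes, so it counts among the lower genes of both. The lower ones with the smallest p were Cd69, Fasl at -0.58 and Ifng at -0.62, and Il2, the textbook target of AP-1 with NFAT, was on the other side at 0.64. Their adjusted p values were 0.336, 0.401, 0.404 and 0.244. NK cells and CD8 T cells also express Fasl and Ifng. On the same arrays Klrd1, Klrk1, Klre1 and Cd8a, markers of those cells named after their values were seen, had -0.55, -0.51, -0.66 and -0.55. These were the lowest of 8 markers, and 3 of the 8 lay above 0. The rest of that list, Eomes, Klrb1c, Ncr1 and Cd8b1, had -0.05, 0.04, 0.05 and 0.31. In wt and Irak1-/- arrays the mean levels were 9.90 and 9.34 for Klrd1 but 4.59 and 4.03 for Cd8a. They were 3.92 and 3.95 for Klrb1c and 3.91 and 3.96 for Ncr1. Both means of Klrb1c and Ncr1 and the Irak1-/- mean of Cd8a lay below the array medians, so the size of any difference there is uncertain. The myeloid marker means were higher in all 4 pairs. The part of NK cell, CD8 T cell or myeloid RNA in these values was not tested. Target genes of BATF in T helper cells had 3 of 13 higher and 0 lower, with a median of 0.09. These were Il1r1 at 0.50 (adjusted p = 0.404), Il22 at 0.50 (adjusted p = 0.660) and Il21 at 0.34 (adjusted p = 0.736). Il12rb2, the chain of the IL-12 receptor that marks Th1 cells, had -0.27. The count of 3 was 1 without pair 1 and 1 in the unpaired fit of the 7 arrays other than Irak1-/- replicate 3.

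**Figure D4:**
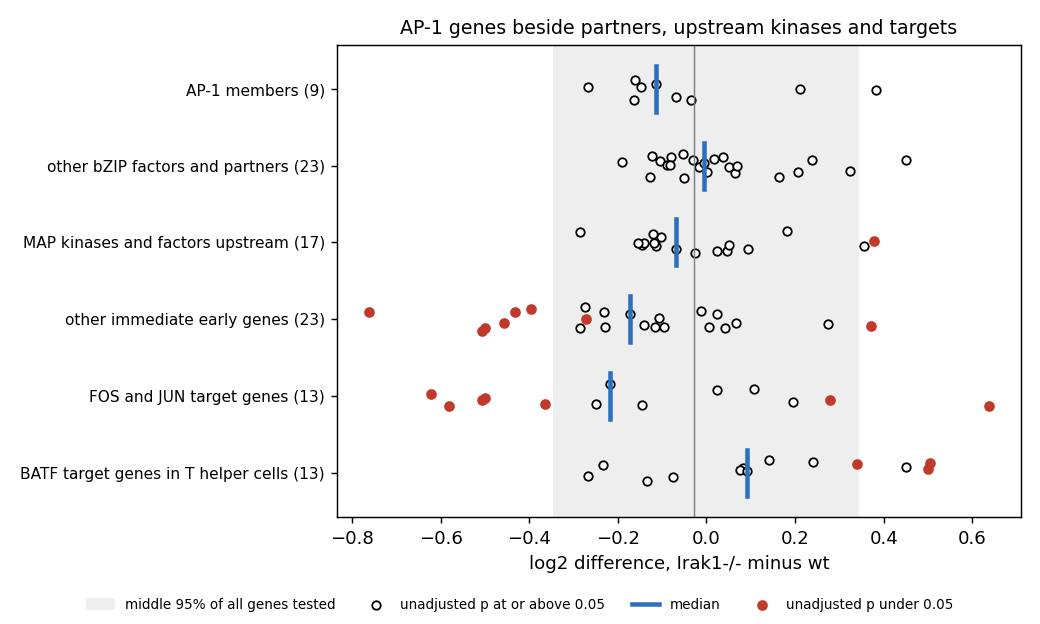
Log2 difference, Irak1-/- minus wt, of the 9 AP-1 genes and of the tested genes of 5 lists (number in brackets). Each circle is a gene, filled where its unadjusted p is under 0.05, blue bars are medians, the grey line is the median of all 13308 genes and the grey band holds the middle 95% of them, from -0.34 to 0.34; 8 of the AP-1 genes lie in the band and Atf3 lies outside it.

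The genes whose profile over the 8 arrays was nearest to an AP-1 gene were found for Fos, Jun and Batf by the root mean square distance between levels centred on each gene's mean. These genes were picked from 13307 over only 8 arrays, and their closeness was not tested. Tll1, Smad4 and Gm5124 were nearest to Fos, at 0.063, 0.074 and 0.074 log2 units. The median gene lay at 0.30 from Fos, and the root mean square spread of Fos around its own mean was 0.225. Gip, Flnc and Adamts17 were nearest to Jun, between 0.079 and 0.083, and Pbx4, Crybb3 and Ccdc43 were nearest to Batf, between 0.069 and 0.074. Among the 9 AP-1 genes themselves the closest profiles were those of Fosb and Junb, at 0.18, followed by Fos and Jun, at 0.19, and the most distant were those of Batf3 and Atf3, at 0.55.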

How the data were processed

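Expression was measured on 8 Affymetrix arrays, 4 of wt and 4 of Irak1-/- cells. The table deposited by the authors holds log2 levels of 41345 probe sets. How background and scale were treated before deposit is not stated. Gene names came from the platform's annotation, updated through gene identifiers with the GRCm38.p6 gene table; 23521 carried 1 symbol, 1814 several, and 16010 had no name here. A gene with several probe sets, of 22180 genes in all, was represented by the one with the highest mean. Genes under the 40th percentile of mean level were left out.

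The genotype comparison used limma 3.58.1 under R 4.3.3 (lmFit and eBayes, two-sided, Benjamini-Hochberg over 13308 genes). The replicate was a block, since paired cells shared their recipients, per the labels' protocols. Deviations of paired arrays from their group means correlated at 0.185, 0.143, 0.200 and 0.0799 across genes. The procedure was also run on simulated data, with noise drawn independently for each gene from the fitted model. Such data hold no noise shared between genes and no outlying array, so that run does not test the fit under them. The number of arrays limits the precision.

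The members, lists and alternatives were chosen with earlier results of these data known. Named genes are the members, the 4 genes of each list with the smallest p, 3 nearest profiles for Fos, Jun and Batf, Irak1, and called markers of other cell types. Xcr1, Irf4, Egr3, Itgax, Klrd1, Klrk1, Klre1, Cd8a, Eomes, Klrb1c, Ncr1, Cd8b1, H2-Ab1, H2-Eb1, Zbtb46, Cd209a, Siglech and the Nfatc genes were added afterwards. So were Nr4a2, Nr4a3, Egr1 and Egr2. Alternatives were the pairing, normalization, level filter, probe set choice, variance model and left-out arrays.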

Additional observations from a re-analysis of the deposited data

Results flagged for a closer look

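Of 29 genes, each looked at in both genotypes, 1 group of 4 held an array far from the others, where chance gives about 1 in 20 groups. Nr4a1 read 7.98 on the wt array of replicate 3, while the other wt arrays lay between 8.31 and 8.36. No AP-1 gene had such an array by the same measure.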

How the results depend on the processing

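Across 125 values of the 9 AP-1 genes under the 14 alternative settings (13 for Atf3), none passed the threshold, and 123 kept their direction. The 2 that reversed were Jun, at 0.057 without pair 1, and Batf, at 0.077 without pair 4. Over the fits without 1 pair, Jun ran from -0.12 to 0.057 and Batf from -0.21 to 0.077. Without the replicate block 0 AP-1 genes, 0 list genes and 11 genes overall were called, and the block changed no call of an AP-1 gene. Over all genes 10 were called, 9 higher and 1 lower. The count was 16 with a random replicate block (14 higher, 2 lower), 16 with median centring (14 and 2) and 16 with trend and robust settings (13 and 3). With the 60th percentile filter 12 were higher and 2 lower, and Atf3 then had too low a level to be tested. Leaving out each pair gave 7 to 17 calls, 6 to 16 of them higher and 1 lower each time. The cause was not tested. With 4 arrays per genotype, the standard errors of the AP-1 genes ran from 0.109 to 0.202 on the log2 scale.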
